A study of Mus musculus with 11 samples.

Results

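B cells were examined among the cells that came through the sorts of macrophages (macs) from mouse spleen and liver. A cell barcode was taken as a B cell when it held at least 2 unique molecular identifiers (UMIs, each standing for 1 captured transcript) of Cd79a and at least 1 of Cd79b, the genes of the signalling chains of the B cell receptor. The rule found 1088 B cells among 21449 barcodes of 5 libraries, in a series of 51712 barcodes and 11 libraries. For comparison, macs were the 18663 barcodes of the same libraries with no Cd79a and at least 3 UMIs of the complement genes C1qa, C1qb and C1qc together. The members were thus chosen by their measured Cd79a and Cd79b UMIs, so the levels of these genes are a description and carry no test.

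B cells are lymphocytes that carry an antibody as their receptor, take up antigen with it and present it on MHC class II, and they can become antibody-secreting plasma cells. The spleen is rich in them: follicular B cells fill the follicles of the white pulp, and marginal zone B cells, which carry much of the complement receptor CD21 (Cr2), lie at the border to the red pulp. The liver holds fewer B cells, in contact with blood that also passes its resident macs, the Kupffer cells (KCs). The transcription factors EBF1 and PAX5 set up and keep the B cell programme, and CD20 (Ms4a1) is a surface protein found on B cells through most of their life.

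The libraries were made with a 10x Genomics kit that counts the 3′ end of transcripts, 1 library for each tissue and genotype. The spleen WT and liver WT libraries came from Zeb2fl/fl mice, whose Zeb2 alleles carry loxP sites and which have no CRE recombinase. The spleen Zeb2KO and liver Zeb2KO libraries are labelled Fcgr1-cre x Zeb2fl/fl, with CRE driven from the gene of the Fc receptor CD64, but the methods name Clec4f-cre, driven from a KC gene, for liver, and this could not be settled here. A further liver WT library came from Nr1h3fl/fl mice, with loxP sites in the gene of the nuclear receptor LXRα and no CRE. All groups thus carry a floxed gene, and those of Zeb2fl/fl background share the floxed Zeb2 alleles. According to the methods, mice were on a C57Bl/6 background, of both sexes, 6 to 8 weeks old unless stated otherwise, and compared with littermates. The study's reporter crosses showed activity of both CRE transgenes in some B cells. How many mice made up a library was not given in the sources used here.

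Spleen cells had been sorted as CD45+, CD64+ and F4/80+ without Ly6C, Ly6G and SiglecF, and liver cells as CD45+, CD64+, F4/80+ and Clec4F+. B cells were not the target of either sort, and their share of a library is not their share of the tissue. The spleen libraries were sequenced on a HiSeq and the liver libraries on a NextSeq500, and the 5 libraries held 3744 to 4717 barcodes and 11133411 to 30163898 UMIs. In B cells Xist, expressed in females, stood at 1603 and 1476 CPM (counts scaled to a common total of 1000000 UMIs) in spleen WT and Zeb2KO and at 0 in the 3 liver libraries, and Ddx3y of the Y chromosome was at 0 in spleen and at 85.0, 78.8 and 75.1 CPM in liver. The methods also give different enzymes for digestion, Collagenase A for liver and Liberase TM for spleen, and different versions of Cell Ranger, the counting software. Tissue, sex, sort gate, digestion, instrument and software version therefore cannot be told apart in any comparison of spleen with liver. Between the libraries 265 barcode sequences recurred, but 0 of them were B cells in more than 1 library.

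B cells made up a larger share of the spleen sorts than of the liver sorts. They were 464 of 4474 barcodes in spleen WT (10.4%, exact Clopper-Pearson 95% interval 9.49 to 11.3) and 335 of 3744 in spleen Zeb2KO (8.95%, 8.05 to 9.91). In liver they were 129 of 4645 in WT (2.78%, 2.32 to 3.29), 129 of 4717 in Zeb2KO (2.73%, 2.29 to 3.24) and 31 of 3869 in Nr1h3fl/fl WT (0.801%, 0.545 to 1.14). Both spleen shares lay above all 3 liver shares, the intervals of liver WT and Zeb2KO overlapped, and the Nr1h3fl/fl library lay below them. The intervals cover counting error only. With 2 libraries against 3 an exact two-sided permutation test cannot give a p below 0.1, so none was made. A deeper barcode reaches the UMI limits more easily, so barcodes were also thinned to 1000 UMIs. Shallower ones were left out, which kept 4048 of 4474 in spleen WT and all barcodes of the other libraries. The shares were then 3.41% and 1.98% in spleen WT and Zeb2KO and 1.12%, 0.996% and 0.284% in liver WT, Zeb2KO and Nr1h3fl/fl WT.

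The B cells of the tissues differed in how many C1q UMIs they held. C1q, a complement protein made by macs, was not seen in 104 of 464 B cells in spleen WT and in 51 of 335 in spleen Zeb2KO, but in liver in only 1 of 129 in WT, 5 of 129 in Zeb2KO and 0 of 31 in Nr1h3fl/fl WT. At 3 or more C1q UMIs, the limit that defined macs, were 150 and 146 B cells in spleen WT and Zeb2KO and 99, 106 and 28 in the liver libraries. Most liver B cells therefore met the C1q limit of macs as well. No doublet caller was run, and 2 cells in 1 droplet and free mac RNA cannot be told apart here.

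**Figure D1:**
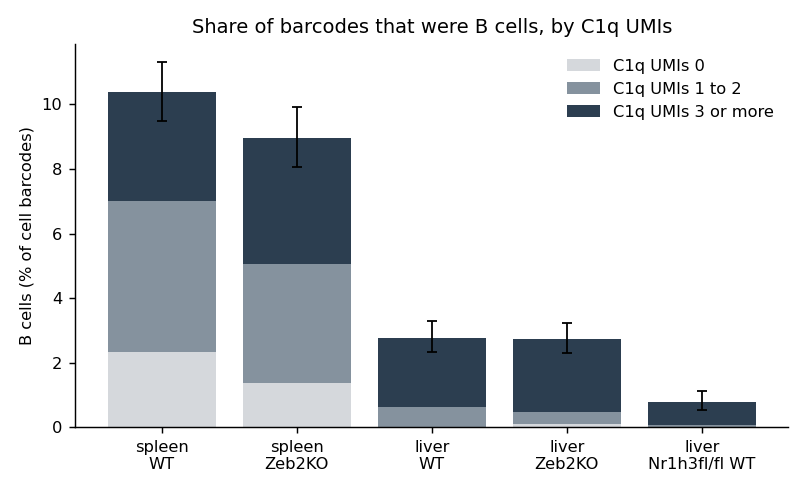
Share of cell barcodes that were B cells (%, y axis) in the 5 libraries, each bar divided by the C1qa, C1qb and C1qc UMIs of the B cells. Error bars are exact 95% intervals of the whole share. Both spleen bars, at 10.4% and 8.95%, stand above the liver bars at 2.78%, 2.73% and 0.801%, and most of each liver bar is made of B cells with 3 or more C1q UMIs.

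B cells with 3 or more C1q UMIs also held more RNA. In liver WT their median was 4700 UMIs, against 2490 in B cells with 1 to 2 C1q UMIs and 5120 in macs. In liver Zeb2KO these medians were 5156.5, 2477 and 5734.5, and in spleen WT they were 3337.5, 2324 and 2151. In spleen Zeb2KO they were 5147.5, 3150.5 and 2618, and in liver Nr1h3fl/fl WT 4197.5, 2683 and 4297. Within each library the B cells with 3 or more C1q UMIs were thus the deeper barcodes, and in spleen they were deeper than the macs. The limit is a count not scaled to depth, and a deeper barcode reaches it more easily. The difference in depth between the classes may therefore follow in part from the choice of cells.

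The amount of mac RNA in B cell barcodes was followed with 15 mac genes, among them Csf1r (the receptor of the growth factor M-CSF), Adgre1 (F4/80), Cd68 and the lysosomal proteases Ctsb and Ctsd. Over all B cells these genes stood at a median of 25.6% and 25.3% of their level in macs of the same library in spleen WT and Zeb2KO, and at 55.3%, 59.6% and 49.2% in liver WT, Zeb2KO and Nr1h3fl/fl WT. In B cells with 1 to 2 C1q UMIs they stood at 12.2% and 10.9% in spleen and at 6.56%, 5.87% and 8.99% in the liver libraries, and with 3 or more at 45.0% and 36.5% in spleen and at 62.8%, 64.3% and 51.4% in liver. The liver B cells as a whole thus carried more mac RNA than the spleen B cells. C1q is itself mac RNA, so the values within a C1q class depend on the choice of cells, and the classes are not a comparison of the tissues. In RNA summed over cells in this way, fewer cells of a type and less RNA per cell cannot be told apart.

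**Figure D2:**
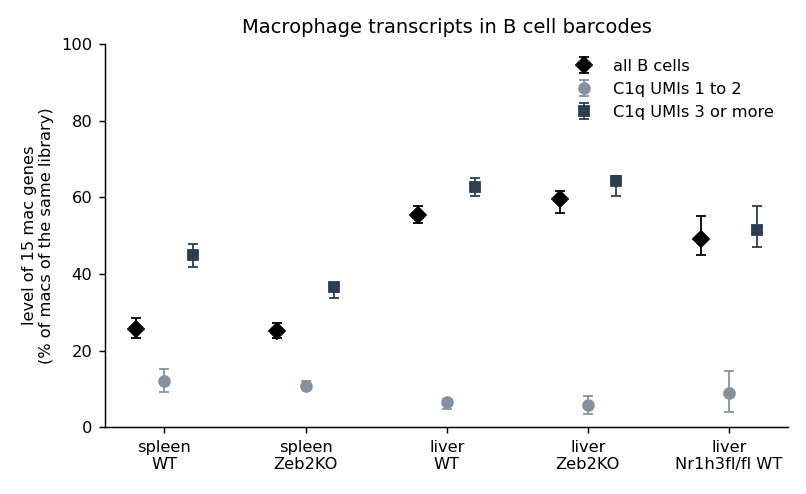
Level of 15 mac genes in B cells as a percent of their level in macs of the same library (y axis), for all B cells and for B cells with 1 to 2 or with 3 or more C1q UMIs. Symbols are medians over the 15 genes and bars run from the lower to the upper quartile. B cells with 1 to 2 C1q UMIs lie between 5.87% and 12.2%, and those with 3 or more between 36.5% and 64.3%.

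The label of B cells was checked with Ebf1, which the rule did not use, and Ebf1 was common in every library. In liver WT B cells Ms4a1 was seen in 78.3% and Pax5 in 36.4%, and the KC gene Clec4f in 84.5%. The check thus shows B cell RNA in a barcode and does not show that mac RNA or a mac is absent. A UMI of Ebf1 was seen in 90.9% and 94.9% of B cells in spleen WT and Zeb2KO and in 97.7%, 95.3% and 96.8% in liver WT, Zeb2KO and Nr1h3fl/fl WT, against 3.11%, 3.01%, 0.472%, 0.533% and 0.236% of macs. Thinned to 1000 UMIs, Ebf1 was seen in 68.0%, 65.7%, 56.6%, 55.8% and 61.3% of B cells and in at most 1.70% of macs. Just outside the rule, among barcodes with 1 Cd79a UMI and at least 1 of Cd79b, 61.0% and 66.1% held Ebf1 in spleen, and 42.9%, 41.2% and 0% (of 21, 17 and 6 barcodes) in liver. Just inside it, at exactly 2 Cd79a UMIs, 84.7% and 91.7% did in spleen and 90.9%, 81.8% and 100% in liver. Barcodes with 2 or more Cd79a UMIs but no Cd79b, left out by the rule, numbered 153 and 102 in spleen and 8, 13 and 1 in liver, and Ebf1 was seen in 78.4% and 67.6% of those in spleen.

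Other lymphoid cells were scarce by single defining genes. In B cells Cd3e of T cells did not pass 4.90 CPM in any library, Cd3d did not pass 4.76 CPM, and Siglech of plasmacytoid dendritic cells, which share Ly6d with B cells, did not pass 1.43 CPM. The summed level of a list of 9 NK cell genes was 5.45 and 17.0 CPM in spleen WT and Zeb2KO and 39.2, 1.43 and 6.26 CPM in the liver libraries. For 10 T cell genes it was 21.8, 19.1, 40.9, 4.30 and 0 CPM in that order, against 69.3, 83.9, 13.8, 13.1 and 17.1 CPM in macs. For 11 genes of plasmacytoid dendritic cells it was 1833, 1653, 1795, 1722 and 1895 CPM, against 875, 681, 1029, 941 and 997 CPM in macs. That list as a whole thus does not show these cells to be scarce.

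Against macs of the same library, B cells held a compact set of genes that stood apart in both tissues. Levels are CPM summed over the cells of a kind in a library, and a log2 ratio compares CPM plus 1. Of 6208 genes with a mean of at least 20 CPM in B cells or macs, 209 were at least 2-fold higher in B cells in all 5 libraries (3.37%) and 36 were at least 2-fold lower (0.580%). The rule set this contrast, so these counts carry no test. The spleen libraries alone gave 545 higher and 1231 lower, and the liver libraries alone 235 and 47, so that few mac genes were low in the liver B cells. The 36 lower genes became 103 without liver WT, 130 without liver Zeb2KO and 70 without liver Nr1h3fl/fl WT.

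Ebf1 stood farthest above macs over all libraries (protein coding, chr11:44617317-45008091, plus strand, GRCm38/mm10, GENCODE M21). It was at 1142 and 1092 CPM in spleen WT and Zeb2KO B cells and at 837, 792 and 932 CPM in liver WT, Zeb2KO and Nr1h3fl/fl WT B cells, against 18.0, 15.1, 1.01, 1.21 and 0.930 CPM in macs in the same order. Ly6d, a small surface protein of the B lineage, was at 1173, 1067, 963, 969 and 1157 CPM in B cells and at 32.1 CPM or less in macs. Mzb1, a chaperone of the endoplasmic reticulum that helps antibody assembly, was at 334, 443, 291, 296 and 269 CPM in B cells and Vpreb3, related to the surrogate light chain, at 256, 179, 219, 139 and 213 CPM. All 4 were at least 4.87 above macs on the log2 scale in every library. The others named by rule included Fcmr (the receptor for IgM), Ptprcap, Fcrla, Fcer2a (CD23), Ralgps2, Mef2c, Gimap1, Cd69, Bcl11a and H2-DMb2, none of them under 3.45 on that scale in any library.

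**Figure D3:**
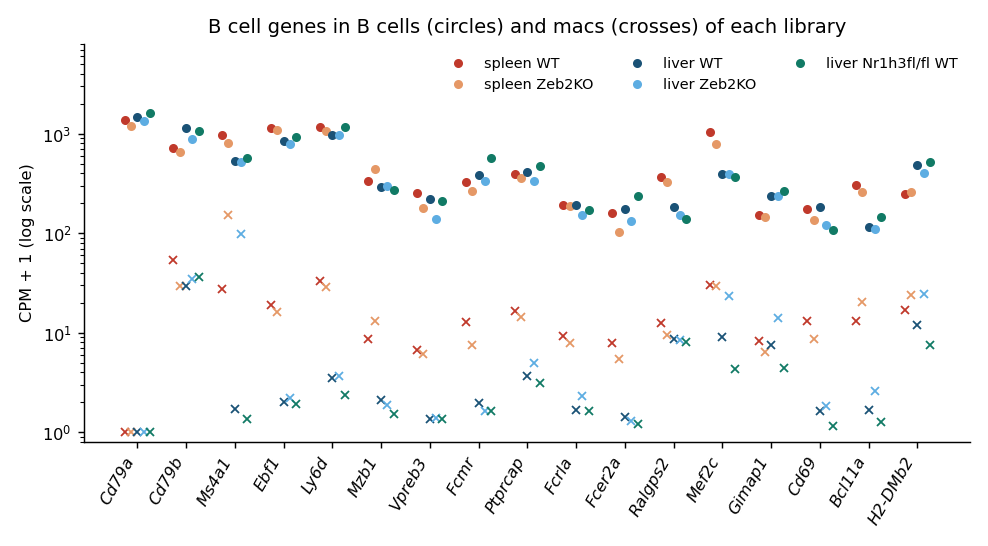
Level (CPM + 1, log scale) of Cd79a and Cd79b, which chose the cells, of Ms4a1 and of 14 genes far above macs, in B cells (circles) and macs (crosses) of each of the 5 libraries. Every circle lies above the cross of its library, and the crosses of Ms4a1 lie higher in the spleen and liver Zeb2KO libraries, at 151 and 96.4 CPM, than in the 3 WT libraries.

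Of 19 B lineage markers at 20 CPM or more, 16 were at least 2-fold higher in B cells than in macs of all 5 libraries, Cd79a and Cd79b among the list, and 0 were lower. Of the genes of B cell receptor signalling 7 of 23 were higher throughout, of B cell transcription factors 10 of 20, of follicular B cell genes 5 of 11, of marginal zone B cell genes 3 of 14, and of homing and adhesion receptors 6 of 15. Among all 6208 genes considered 3.37% were higher throughout and 0.580% lower. Of 12 genes of MHC class II presentation, which macs also carry out, 4 were higher throughout. Of the 15 mac genes 1 was at least 2-fold lower in B cells of all 5 libraries, Adgre1, at 189.5, 149, 324, 336 and 425 CPM in B cells against 731, 632, 771, 706 and 960.3 CPM in macs. The 10 genes named by rule as lowest against macs were Id2, Il1b, Adgre1, Lpl, Rxra, Igsf6, Mpeg1, Treml4, Sirpa and Clec4n, and Mpeg1, a pore-forming protein of phagocytes, was at 173, 239, 311, 268 and 425 CPM in B cells against 786, 998, 627, 518 and 941 CPM in macs. The constant region genes of antibodies, apart from Jchain, were not analysed here.

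Transcripts of B cell genes also appeared in barcodes called macs, at levels that differed between genes. Over 114 genes with a mean of at least 20 CPM in B cells and at least 8-fold less in macs, called low in macs from here on, the level in macs was a median of 5.29% and 5.89% of that in B cells in spleen WT and Zeb2KO and 1.75%, 3.98% and 1.29% in liver WT, Zeb2KO and Nr1h3fl/fl WT. Cd79b and Ms4a1 stood apart from this. Macs of the 3 liver libraries held 28.3, 28.0 and 37.6 Cd79b UMIs per Ebf1 UMI, against 1.37, 1.11 and 1.15 in B cells of these libraries. Ms4a1 was at 26.4, 151, 0.7003, 96.4 and 0.362 CPM in macs of the 5 libraries, and a UMI of it was seen in 22.6% of spleen and 29.1% of liver Zeb2KO macs and in 4.89%, 0.382% and 0.184% of spleen WT, liver WT and Nr1h3fl/fl WT macs. Ms4a1 was thus seen in more macs than Ebf1 in both spleen libraries and in liver Zeb2KO, and in fewer in liver WT and Nr1h3fl/fl WT. According to the study, KCs themselves express CD20 (Ms4a1) after loss of Zeb2. The study also followed splenic macs by CD11b and CD20 after induced loss of Zeb2, and used Ms4a1 to identify colon macs without Zeb2. The source of Ms4a1 in the Zeb2KO macs was not tested here.

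Spleen B cells were compared with liver B cells on UMIs summed over the B cells of each library, 2 spleen against 3 liver libraries, in edgeR's quasi-likelihood test with Benjamini-Hochberg adjustment. The spleen B cells held 2936122 UMIs in all and the liver B cells 1469988. At an adjusted p under 0.05, 2868 of 7167 genes differed (40.0%), 1397 higher in spleen (19.5%) and 1471 higher in liver (20.5%). The same test on macs of these libraries called 4735 of 12828 genes (36.9%). Nothing in the sources used here says that the libraries are replicates from separate animals of 1 kind, so the p-values measure the spread between these libraries, which may be technical.

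The genes farthest apart were mostly genes of macs and red blood cells. Clec4f, the KC lectin used to sort the liver cells, was at 0 in both spleen libraries and at 3665, 1218 and 2183 CPM in liver WT, Zeb2KO and Nr1h3fl/fl WT B cells, at least 2292-fold higher in liver than 3 UMIs over all spleen B cells. In liver macs it was at 5995, 2025 and 4152 CPM. Vcam1, an adhesion protein of red pulp macs, was at 1518 and 1082 CPM in spleen WT and Zeb2KO and at 78.5, 90.2 and 138 CPM in the liver B cells (log2 fold change 3.77 ± 0.23, SE; edgeR adjusted p = 4.44e-08), and at 6774 and 5019 CPM in spleen macs. Where 40.0% of all genes were called, 10 of 12 KC genes were higher in liver B cells and 0 in spleen, and of 12 red pulp mac genes 6 were higher in spleen and 2 in liver.

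The 12 genes named by rule as higher in spleen were Hba-a1, Hba-a2, Hbb-bs and Hbb-bt, which encode haemoglobin, Jchain, Itgad, Gdf15, Hist1h4d, Irs2, Tnfaip3, Vcam1 and Hist1h1b. Those higher in liver included Clec4f, Fabp7, Vsig4, Folr2, Cd207, Wfdc17, Id1, Gbp2b, Cdh5, Cd209f and C3ar1, each at a higher level in liver macs than in B cells of the same library. Of the 1471 genes higher in liver B cells, 817 (55.5%) were higher in macs than in B cells of all 3 liver libraries. Of the 1397 higher in spleen B cells, 459 (32.9%) were higher in macs of both spleen libraries. These shares need 3 and 2 libraries, and none was taken over all genes. Of 1387 genes higher in spleen B cells and fitted in macs, 1271 changed in the same direction in macs. For genes higher in liver B cells 1389 of 1469 did. No such count was taken over all genes either, so these numbers do not set the called genes apart from the rest. The histone genes Hist1h4d and Hist1h1b, made when DNA is copied, were higher in spleen B cells than in spleen macs. Hist1h4d was at 55.9 and 88.5 CPM in spleen and 1.63, 0 and 6.26 CPM in liver B cells and at most 10.9 CPM in macs, with 82 and 130 UMIs in the spleen libraries and 1, 0 and 1 in the liver libraries. Hist1h1b was at 61.4 and 63.3 CPM in spleen and 3.27, 7.16 and 0 CPM in liver B cells and at most 14.0 CPM in macs.

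Jchain, the chain that joins antibody units and is abundant in plasma cells, rested on few cells. Of its 278 UMIs in spleen WT B cells 87.4% came from 1 cell, and of 1248 UMIs in spleen Zeb2KO 98.9% came from 5 cells. In liver B cells it had 0 UMIs, which allows up to 2.04 CPM over all of them (3 UMIs). Its level in spleen is therefore that of single cells and not of B cells at large.

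**Figure D4:**
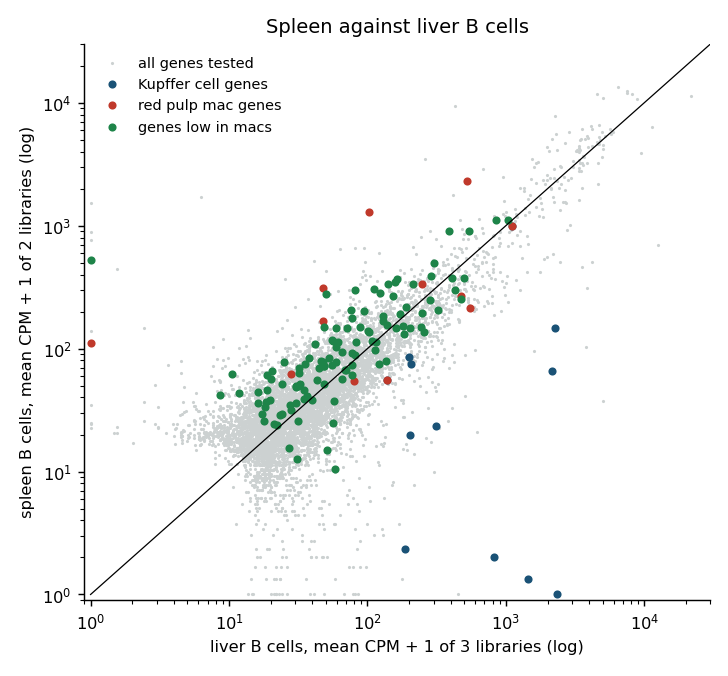
Mean level (CPM + 1, log scales) of the 7167 genes tested in liver B cells (x axis, 3 libraries) and spleen B cells (y axis, 2 libraries), with the line of equal levels. Of the KC genes (blue) 10 of 12 were higher in liver past the threshold, of the red pulp mac genes (red) 6 of 12 were higher in spleen, and the 114 genes low in macs (green) have a median log2 fold change of 0.56.

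Genes low in macs were used to follow the B cells themselves. Of the 114, 49 were higher in spleen and 12 higher in liver past the threshold, in a fit that called 40.0% of all genes, and their median log2 fold change was 0.56, against 0.02 over all genes tested. The test was repeated, after seeing the data, with the scale set by these 114 genes, which moved the median of all genes to -0.43: 28 of the 114 were then higher in spleen and 26 in liver, and over all genes 565 were higher in spleen and 2643 in liver (44.8%). It was also repeated in B cells with fewer than 3 C1q UMIs, without the Nr1h3fl/fl library, which held 3 such cells. Of 112 genes low in macs 8 were then higher in spleen and 19 in liver, where 12.9% of 4421 genes passed. Liver cells were few in this fit: 1 and 29 in WT and 5 and 18 in Zeb2KO held 0 and 1 to 2 C1q UMIs. In spleen these numbers were 104 and 210 in WT and 51 and 138 in Zeb2KO. In that last fit the mac genes no longer leaned to liver, with 2 of 12 higher in spleen, 3 in liver and a median of 0.01, but of the KC genes 4 of 6 were still higher in liver and of the red pulp mac genes 7 of 9 in spleen. The scale set by the 114 genes centres this list by construction, so its counts on that scale say nothing of the list's direction, and the fit with fewer than 3 C1q UMIs changed the cells and the libraries as well. Of the 114, 76 did not overlap between spleen and liver libraries, against 55.3% of all genes tested.

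In all 3 of these fits, with spleen and liver libraries that did not overlap, 19 of the 114 genes passed in the same direction, 8 higher in spleen and 11 higher in liver. Over all genes tested in the 3 fits, 356 of 4416 did so (8.06%), 4.10% higher in spleen and 3.96% higher in liver. The 19 were chosen after their values were seen. The list of 114 itself required a mean of at least 20 CPM in B cells. Dtx1 and Rab30 did not pass 14.3 and 12.5 CPM in any liver library. S1pr4 and B3gnt8 did not pass 9.54 and 16.3 CPM in either spleen library. These genes thus entered the list only through the tissue in which they were higher, and for them the choice of genes was not independent of tissue. With mac RNA subtracted from the B cell sums, 7 of the 19 kept their direction but no longer passed, namely Dtx1, Rab30, S1pr1, Pax5, Strbp and Ikzf3 of the 8 higher in spleen and Lamb3 of those higher in liver. The log2 fold change went from 1.14 to 0.44 for Ikzf3, from 2.46 to 1.75 for Dtx1 and from -0.76 to -1.39 for Lamb3, so that the size fell for Ikzf3 and Dtx1 and rose for Lamb3. The results that follow are given with the main scale unless stated.

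Cr2, the complement receptor CD21 that is high on marginal zone B cells (protein coding, chr1:195136811-195176716, minus strand), led those higher in spleen. It was at 245 and 311 CPM in spleen WT and Zeb2KO B cells and at 37.6, 34.4 and 75.1 CPM in liver WT, Zeb2KO and Nr1h3fl/fl WT B cells. The log2 fold change was 2.74 ± 0.25 (SE; edgeR adjusted p = 1.49e-06), 2.30 with the scale set by genes low in macs and 2.21 in B cells with fewer than 3 C1q UMIs. The last value rested in liver WT on 5 Cr2 UMIs, all in B cells with 1 to 2 C1q UMIs. In liver Zeb2KO it rested on 3 Cr2 UMIs in B cells with 0 C1q UMIs and 2 in those with 1 to 2. Thinned to 1000 UMIs, a UMI of Cr2 was seen in 18.9% and 24.8% of spleen B cells and in 4.65%, 4.65% and 9.68% of liver B cells, against at most 0.709% of macs. Both spleen libraries lay above all 3 liver libraries in share of cells, and in level by the rule that chose Cr2.

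Other genes of marginal zone B cells lay the same way or did not pass. Dtx1, a regulator of Notch signalling, was at 52.5 and 68.7 CPM in spleen and at 8.17, 14.3 and 6.26 CPM in liver B cells (log2 fold change 2.46 ± 0.33, edgeR adjusted p = 6.95e-05), with 5, 10 and 1 UMIs in the liver libraries. S1pr3, a receptor for the lipid sphingosine 1-phosphate, was at 19.8 and 27.2 CPM in spleen and at 0 in all 3 liver libraries, at least 11.5-fold higher than 3 UMIs over all liver B cells. Of 15 genes of marginal zone B cells, 8 were higher in spleen and 0 higher in liver, with a median log2 fold change of 0.62, where 40.0% of all genes were called and 19.5% were higher in spleen. The other 5 of the 8 were Cd1d1, Dph5, Pdia4, Plac8 and Tbc1d9. Cd1d1 and Tbc1d9 were higher in spleen macs than in spleen B cells. With the scale set by genes low in macs 5 were higher in spleen and 1 in liver, in B cells with fewer than 3 C1q UMIs 6 of 11 and 0, and with mac RNA subtracted 4 of 10 and 0. Over all genes 44.8% and 12.9% passed in the first 2 of these fits. In the fit with mac RNA subtracted 142 of 3963 genes were higher in spleen and 133 in liver.

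Of 11 genes of follicular B cells tested, Ccr7 and Satb1 were higher in spleen and Klf2 was higher in liver, with a median of -0.13. In this fit these 3 of 11 are a smaller share than the 40.0% called over all genes. With the scale set by genes low in macs 2 were higher in spleen and 5 in liver, where 44.8% of all genes passed. In B cells with fewer than 3 C1q UMIs, where 12.9% of all genes passed, 1 of 11 was higher in spleen and 4 in liver. With mac RNA subtracted these counts were 1 and 3 of 11, beside 142 and 133 of 3963 over all genes. The medians in these last fits were -0.65 and -0.76. Fcer2a, the IgE receptor CD23 that is high on follicular B cells, was at 158 and 101 CPM in spleen and at 175, 133 and 238 CPM in liver B cells (log2 fold change -0.40, edgeR adjusted p = 0.168), and the libraries overlapped. Cxcr5, the receptor that guides B cells into follicles, was at 79.1 and 76.2 CPM in spleen and 62.1, 48.7 and 25.02 CPM in liver B cells (log2 fold change 0.59, edgeR adjusted p = 0.0556). Cr2 passed the threshold and Fcer2a and Cxcr5 did not, and the difference between these genes was not tested.

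Among transcription factors of B cells, 11 of 21 were higher in spleen and 2 higher in liver, where 40.0% of all genes were called. The counts were 8 and 3 with the scale set by genes low in macs, 4 and 2 of 19 in B cells with fewer than 3 C1q UMIs, and 1 and 1 of 19 with mac RNA subtracted. All genes together gave 44.8%, 12.9%, and 142 higher in spleen and 133 in liver of 3963, in the same order. Pax5 was at 347 and 257 CPM in spleen and 101, 94.5 and 138 CPM in liver B cells (log2 fold change 1.51 ± 0.20, edgeR adjusted p = 5.53e-05). Satb1, an organiser of chromatin that is on the follicular list, was at 347 and 254 CPM against 70.3, 81.6 and 87.6 CPM (log2 fold change 1.93 ± 0.20), and Ikzf3 (Aiolos), a zinc finger factor of lymphocytes, at 132 and 101 CPM against 55.6, 45.8 and 62.6 CPM. Pax5, Satb1 and Ikzf3 were among the genes chosen for passing in all 3 fits, and with mac RNA subtracted Pax5 and Ikzf3 no longer passed. Ebf1 had a log2 fold change of 0.39 (edgeR adjusted p = 0.0818) with the main scale and of -0.04 with the scale set by genes low in macs.

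Irf4, Mef2c and Bcl11a were among the other transcription factors that were higher in spleen. Irf4, a factor of activated B cells and plasma cells, was at 151 and 107 CPM in spleen and 24.5, 32.9 and 25.02 CPM in liver B cells (log2 fold change 2.15 ± 0.24, edgeR adjusted p = 1.19e-05), and at 11.4 CPM or less in macs. Mef2c, a factor that B cells need to multiply after antigen contact, was at 1031 and 789.6 CPM against 391, 394 and 369 CPM, and Bcl11a at 305 and 257 CPM against 114, 109 and 144 CPM. Both spleen libraries lay above the liver libraries for each of these genes, but in B cells with fewer than 3 C1q UMIs Mef2c and Bcl11a did not pass (edgeR adjusted p = 0.112 and 0.322).

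Klf2 and Id3 were the transcription factors on the list that were higher in liver. Klf2, which restrains lymphocytes and controls their trafficking, was at 489 and 280.4 CPM in spleen and 1053, 1092 and 926 CPM in liver B cells (log2 fold change -1.44 ± 0.22, edgeR adjusted p = 0.000202), with a log2 fold change of -1.71 in B cells with fewer than 3 C1q UMIs. In macs it was at 622, 250.3, 537, 613 and 385 CPM, below the B cells of the same library in all 3 liver libraries. Id3 was at 19.8 and 20.4 CPM in spleen and 599.9, 829 and 413 CPM in liver B cells, with 919, 1766 and 789 CPM in liver macs.

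Receptors for sphingosine 1-phosphate, the lipid that draws lymphocytes into blood and lymph, differed in both directions. S1pr1, which leads lymphocytes out of lymphoid organs, was at 221 and 187 CPM in spleen and 63.8, 68.7 and 93.8 CPM in liver B cells (log2 fold change 1.52 ± 0.19, edgeR adjusted p = 3.43e-05). S1pr4 (protein coding, chr10:81497747-81500132, minus strand) was at 9.54 and 9.53 CPM in spleen and 73.6, 60.1 and 37.5 CPM in liver B cells (log2 fold change -2.71 ± 0.30, edgeR adjusted p = 1.06e-05). In macs S1pr4 did not pass 1.66 CPM and lay below the B cells of all 3 liver libraries, but the liver level rested on 45, 42 and 6 UMIs in the liver libraries and on 14 in each spleen library. S1pr1 and S1pr4 were chosen for passing in all 3 fits, so their passing is no further support. S1pr4 was among the genes low in macs only through its level in liver. With mac RNA subtracted S1pr1 no longer passed.

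Of 17 homing and adhesion receptors tested, 6 were higher in spleen and 4 in liver, where 40.0% of all genes were called. With the scale set by genes low in macs (44.8% of all genes called) the counts were 4 and 6. In B cells with fewer than 3 C1q UMIs (12.9% called) they were 2 and 3 of 16. With mac RNA subtracted they were 0 and 3 of 13, beside 142 and 133 of 3963 over all genes. The 6 were Ccr7, Cxcr4, S1pr1, S1pr3, Gpr183 and Itga4, and the 4 were S1pr4, Itgb7, Itgal and Klf2, a transcription factor that is on the list. Ccr7, which guides cells to T cell zones, was at 425 and 242 CPM in spleen and 178, 156 and 81.3 CPM in liver B cells, with a log2 fold change of 1.13 and of 0.20, past no threshold, in B cells with fewer than 3 C1q UMIs (edgeR adjusted p = 0.671). Itgb7, an integrin chain of gut homing, was at 17.7 and 17.7 CPM against 60.5, 68.7 and 37.5 CPM (log2 fold change -1.79, edgeR adjusted p = 0.000123), and liver macs held 24.2, 53.8 and 7.39 CPM. Itgal, part of LFA-1, was higher in liver macs than in liver B cells.

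Genes of MHC class II presentation were higher in liver B cells. Of 12, 10 were higher in liver and 0 in spleen, with a median log2 fold change of -0.89, where 20.5% of all genes were higher in liver. In B cells with fewer than 3 C1q UMIs, where 12.9% of all genes were called, 10 of 12 were higher in liver and 0 in spleen. With mac RNA subtracted these counts were 8 and 0, where 133 of 3963 genes were higher in liver. H2-DMb2, part of the DM complex that loads peptides onto class II, is low in macs and was at 248 and 259 CPM in spleen and 481, 402 and 525 CPM in liver B cells (log2 fold change -0.88 ± 0.18, edgeR adjusted p = 0.00178). H2-Oa, which restrains that complex, was at 106 and 116 CPM against 213, 208 and 188 CPM, with 56.2 CPM or less in macs. Cd74, the invariant chain, was at 5922 and 6856 CPM in spleen and 12646, 11499 and 9997 CPM in liver B cells, and at 2005, 4968, 7520.1, 8831 and 2908 CPM in macs of the 5 libraries. H2-Ob and Ciita, the activator of class II genes, did not pass, with log2 fold changes of -0.16 and 0.05.

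The other genes low in macs that were higher in liver B cells in all 3 fits included 3 GIMAP GTPases of lymphocytes. Gimap6 was at 145 and 123 CPM in spleen and 273, 271 and 225 CPM in liver B cells, Gimap7 at 24.5 and 23.1 CPM against 55.6, 54.4 and 56.3 CPM, and Gimap1 at 153 and 144 CPM against 234, 236 and 263 CPM. Cd2, an adhesion protein of lymphocytes, was at 78.4 and 77.6 CPM against 142, 126 and 138 CPM. These 4 genes were chosen for no overlap between the tissues. That every liver library lay above both spleen libraries was thus fixed by the choice, and the gap was wider than the spread within a tissue. The rest were B3gnt8, Serpinb1a, Lamb3, S100a10 and Siglecg, and for Lamb3 the Nr1h3fl/fl library, with 37.5 CPM from 6 UMIs, lay just above the spleen libraries at 36.1 and 36.8 CPM.

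**Figure D5:**
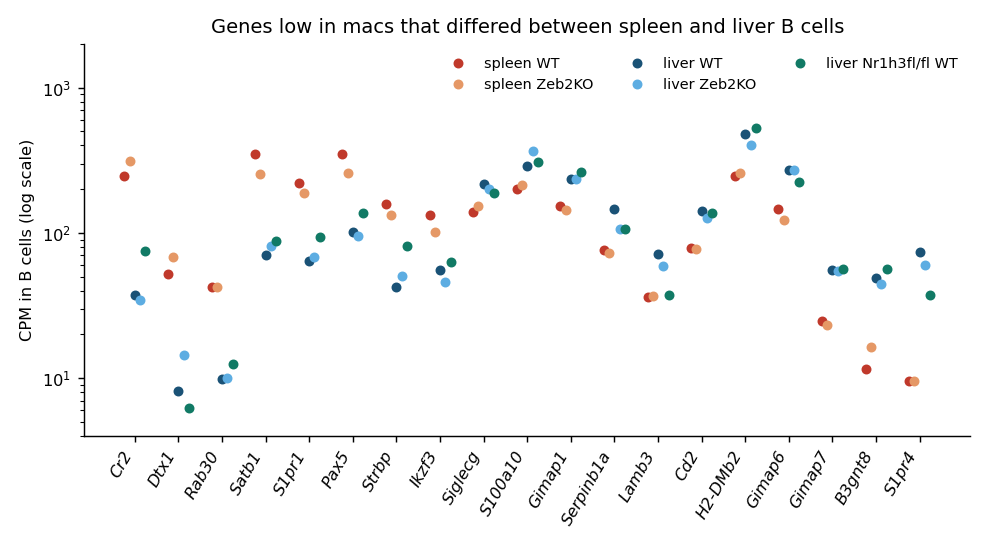
Level (CPM, log scale) of the 19 genes low in macs that differed between spleen and liver B cells in all 3 fits, 1 point for each library, ordered by log2 fold change. The spleen points lie above the liver points for the 8 genes from Cr2 to Ikzf3 and below them for the 11 genes from Siglecg to S1pr4, which was at 9.54 and 9.53 CPM in spleen. Genes were chosen for no overlap between the tissues, so this separation follows from the choice.

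Of 23 genes of B cell receptor signalling tested, 9 were higher in spleen and 2 in liver, where 40.0% of all genes were called. With the scale set by genes low in macs (44.8% of all genes called) these counts were 4 and 2, and in B cells with fewer than 3 C1q UMIs (12.9%) 2 and 1. Malt1, an activator of NF-kB, was at 84.5 and 85.1 CPM in spleen and 22.9, 15.8 and 31.3 CPM in liver B cells (log2 fold change 2.02, edgeR adjusted p = 4.24e-05). Cd22, an inhibitory coreceptor, was at 145 and 146 CPM against 91.5, 68.7 and 50.05 CPM (log2 fold change 0.94, edgeR adjusted p = 0.00198), and 0.50 with the scale set by genes low in macs. Neither Malt1 nor Cd22 passed in B cells with fewer than 3 C1q UMIs (edgeR adjusted p = 0.26 and 0.522). Cd72 and Cd81, the 2 higher in liver, were at 242, 216 and 186 and 1644, 1371 and 1448 CPM in liver macs.

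Of 22 activation genes tested, 11 were higher in spleen B cells and 1, Ier2, was higher in liver, where 40.0% of all genes were called. With the scale set by genes low in macs (44.8% of all genes called) the counts were 8 and 2. In B cells with fewer than 3 C1q UMIs (12.9% called) they were 6 and 4. With mac RNA subtracted they were 2 and 1 of 19, beside 142 and 133 of 3963 over all genes. Rel, an NF-kB subunit, was at 470.4 and 387 CPM in spleen and 94.8, 93.1 and 87.6 CPM in liver B cells (log2 fold change 2.19 ± 0.18, edgeR adjusted p = 6.99e-07), above the 159 and 130.2 CPM of spleen macs. Nr4a1, an early gene of antigen receptor signalling, was at 479 and 369 CPM against 36.0, 85.9 and 25.02 CPM, with 702 and 493 CPM in spleen macs. Fos was at 806 and 521 CPM against 201, 361 and 75.1 CPM, with 2327 and 964 CPM in spleen macs, and did not pass in DESeq2 (adjusted p = 0.124). Of the 11, Rel and Myc were lower in macs than in B cells of both spleen libraries, Fosb was lower in Zeb2KO alone, and the other 8 were higher in macs. Of the heat shock genes 4 of 10 were higher in spleen, and Hspa1a and Hspa1b, the inducible HSP70 genes, were higher in liver, with 0 in the Nr1h3fl/fl library.

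Interferon-stimulated genes were higher in liver B cells in 12 of 15 tested and in spleen in 0, where 20.5% of all genes were higher in liver. All 12 were also higher in liver macs than in spleen macs. Irf7, a factor of interferon responses, was at 14.997 and 17.7 CPM in spleen and 349.8, 266 and 238 CPM in liver B cells, and at 48.5, 59.6, 567, 434 and 523 CPM in macs of the 5 libraries. In B cells with fewer than 3 C1q UMIs, where 12.9% of all genes were called, Irf7 and Bst2 were higher in liver among 6 tested. With mac RNA subtracted 0 of 5 passed in edgeR at an adjusted p under 0.05. Of all 3963 genes in that fit 142 were higher in spleen and 133 in liver.

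B cell states other than follicular and marginal zone were seen through few genes. Beside the 40.0% called over all genes, of 12 B1 cell genes tested 5 were higher in spleen and 2 in liver, but Cd5, which marks B1a cells, did not pass 2.86 CPM in any library. Fcrl5, also carried by marginal zone B cells, was at 28.6 and 43.6 CPM in spleen and 0, 4.30 and 0 CPM in liver B cells. Of 10 plasma cell genes 5 were higher in spleen, among them Jchain and Irf4. Of 8 genes of germinal centres and division 3 were higher in spleen and 0 in liver, against 1 and 2 with the scale set by genes low in macs and 1 and 0 in DESeq2. Among them Mki67, a gene of dividing cells, had 84.4% of its UMIs in spleen Zeb2KO B cells from 5 cells, and Top2a, needed to separate copied chromosomes, was at 102 and 53.8 CPM against 3.27, 22.9 and 18.8 CPM. Of the immature B cell genes 3 were tested and Cd24a was higher in spleen.

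The promoters of B cell genes were searched for 2 motifs, since EBF1 and the POU factors that bind the octamer are active in B cells. In RefSeq windows (GRCm38.p6) from 250 bases before to 50 after a transcription start, the octamer ATGCAAAT, on either strand, was present in 354 of 21959 windows (1.61%), and in 3 of 115 windows (2.61%) of the 80 genes with a window among Cd79a, Cd79b and the 114 genes low in macs. The letters CCCNNGGGA, taken from the site of EBF1, were on either strand in 1610 of all windows (7.33%) and in 19 of the 115 (16.5%). Windows of 1 gene can overlap, and a match is a description of letters and not a site shown to be used. Only these exact letters were searched, so a window without a match can still hold a site that departs from them. The windows of Vpreb3, Cd22, Dtx1 and H2-DMb2, genes described above, are shown because they hold a match, and that of Cr2 is shown because Cr2 led the genes higher in spleen, although neither motif was found in it, nor in that of Cd79a. Capitals mark the octamer, read on the opposite strand, in Vpreb3, and the EBF1 letters in the others, where 2 overlapping matches on both strands make 1 run in Cd22.
Vpreb3, chr10:75948050-75948349, plus strand: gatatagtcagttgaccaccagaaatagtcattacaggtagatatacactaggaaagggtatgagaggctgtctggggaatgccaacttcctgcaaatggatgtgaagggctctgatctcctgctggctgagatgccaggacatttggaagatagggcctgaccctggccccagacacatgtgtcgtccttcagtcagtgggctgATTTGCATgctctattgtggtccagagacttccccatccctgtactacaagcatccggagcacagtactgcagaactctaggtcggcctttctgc
Cd22, chr7:30878979-30879278, minus strand: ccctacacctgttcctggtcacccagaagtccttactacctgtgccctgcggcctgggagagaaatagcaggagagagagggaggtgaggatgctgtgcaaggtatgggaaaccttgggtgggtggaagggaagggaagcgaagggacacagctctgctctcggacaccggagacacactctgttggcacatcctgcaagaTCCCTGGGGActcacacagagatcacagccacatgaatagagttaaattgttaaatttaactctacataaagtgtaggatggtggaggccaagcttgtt
Dtx1, chr5:120711620-120711919, minus strand: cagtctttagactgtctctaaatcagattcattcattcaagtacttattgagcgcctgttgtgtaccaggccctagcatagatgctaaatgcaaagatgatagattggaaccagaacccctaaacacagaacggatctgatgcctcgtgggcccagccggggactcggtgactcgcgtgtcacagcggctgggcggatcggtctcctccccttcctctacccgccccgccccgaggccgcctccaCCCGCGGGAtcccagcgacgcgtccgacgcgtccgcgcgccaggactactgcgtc
H2-DMb2, chr17:34144999-34145298, plus strand: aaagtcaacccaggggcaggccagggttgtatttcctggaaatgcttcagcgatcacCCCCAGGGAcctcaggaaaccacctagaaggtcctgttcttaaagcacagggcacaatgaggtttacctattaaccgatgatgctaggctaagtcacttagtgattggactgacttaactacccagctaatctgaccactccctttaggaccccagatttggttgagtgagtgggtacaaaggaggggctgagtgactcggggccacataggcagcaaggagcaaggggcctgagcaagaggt
Cr2, chr1:195176670-195176969, minus strand: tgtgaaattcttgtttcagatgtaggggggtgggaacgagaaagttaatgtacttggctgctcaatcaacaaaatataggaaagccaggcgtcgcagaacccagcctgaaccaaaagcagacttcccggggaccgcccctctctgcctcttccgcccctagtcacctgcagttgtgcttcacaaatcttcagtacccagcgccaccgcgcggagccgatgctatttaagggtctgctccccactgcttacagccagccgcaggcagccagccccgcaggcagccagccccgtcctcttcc

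Whether the difference between tissues departed in B cells from that in macs was tested with the library as a block, which compares the B cell over mac ratio of each gene between spleen and liver. Of 11614 genes 1311 passed in edgeR at an adjusted p under 0.05 (11.3%), 755 with a higher ratio in spleen and 556 in liver. Of the 114 genes low in macs 11 had a higher ratio in spleen and 48 in liver, where their level in macs was a median of 5.29% and 5.89% of the B cell level in spleen and 1.75%, 3.98% and 1.29% in liver. Irf4 had a higher ratio in spleen, by 1.87 on the log2 scale (edgeR adjusted p = 7.96e-05), and Rel by 0.63 (adjusted p = 0.0399). Fcer2a had a lower ratio in spleen, with a difference of -4.21, and was at 6.82 and 4.48 CPM in spleen macs and 0.428, 0.311 and 0.207 CPM in liver macs.

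CRE-positive B cells were compared with CRE-negative ones with the tissue as a covariate, 2 libraries against 3, and few genes differed. Of 7167 genes 14 passed in edgeR at an adjusted p under 0.05 (0.195%), 9 higher and 5 lower in the CRE-positive libraries, and 358 had an unadjusted p under 0.05. All 14 are named, also where the rule for naming left them out. The 9 higher were Meg3, Rnase4, Trem2, Jchain, Igfbp7, Rgs3, Cd207, Lpl and Gm10116, and the 5 lower were Apoc1, Pcolce2, Col14a1, C4b and Cd163. Of these, Jchain was the 1 gene low in macs, and it rested on the few cells described above. Each tissue had 1 CRE-positive library, and not all calls held in both tissues. Igfbp7 was at 2.73 and 1.36 CPM in spleen WT and Zeb2KO B cells, and C4b at 1.36 and 2.72 CPM. Jchain was at 0 in all liver libraries, and Cd207 at 0 and 0.681 CPM in spleen. Each of the 14 moved in its called direction in macs of spleen, of liver or of both. Cd163, a scavenger receptor of macs, was at 98.2 and 10.2 CPM in spleen WT and Zeb2KO B cells and at 142, 38.7 and 231 CPM in liver WT, Zeb2KO and Nr1h3fl/fl WT B cells (log2 fold change -2.56, edgeR adjusted p = 5.21e-05). In macs it was at 384, 26.2, 335, 52.8 and 486 CPM, lower in the CRE-positive libraries as well. Of the lists of B lineage markers, receptor signalling, transcription factors, follicular and marginal zone genes, 0 genes passed.

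Zeb2 (protein coding, chr2:44983632-45117395, minus strand) was at 247 and 235 CPM in spleen WT and Zeb2KO B cells and at 208, 389 and 300.3 CPM in liver WT, Zeb2KO and Nr1h3fl/fl WT B cells. This was 33.9%, 26.8%, 53.1%, 51.7% and 58.0% of its level in macs of the same library, where the 15 mac genes stood at medians of 25.6%, 25.3%, 55.3%, 59.6% and 49.2%. The log2 fold change of CRE-positive over CRE-negative B cells was 0.38 (edgeR adjusted p = 1). According to the study, the floxed allele still gives a shortened transcript with its 3′ end, which this 3′ assay counts, and the values were therefore not read as a check of the knockout.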

How the data were processed

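Sorted cells of 11 libraries, 1 for each tissue and genotype, were profiled with 10x Genomics 3′ chemistry, and the 5 libraries of spleen and liver were used here. The authors deposited raw UMI counts per gene and cell barcode, without normalization, and the submitters' processing notes name Cell Ranger and mm10. The barcodes were used as deposited, and reads shared by near-identical genes, such as the haemoglobin and histone genes, may have been split or lost.

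B cells and macs were chosen by UMIs, and the UMIs of a kind were summed within a library. These sums were tested in edgeR 4.0.16 (R 4.3.3, TMM scaling, filterByExpr, quasi-likelihood test, Benjamini-Hochberg adjustment, adjusted p under 0.05) for tissue (2 against 3 libraries), for tissue by cell kind with the library as a block, and for CRE status with tissue as covariate. The SE of a log2 fold change was worked back from the test, as its size divided by the square root of the F statistic. CPM are UMIs scaled to a sum of 1000000. B cells were compared with macs without a test, on log2(CPM + 1), for genes with a mean of at least 20 CPM. Shares carry exact Clopper-Pearson 95% intervals (scipy 1.17.1).

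Genes were named by rule: the 12 with the largest change in each direction between tissues (6 for CRE) among those past the threshold, at 50 CPM or more and without overlap; the 15 highest and 10 lowest against macs at 100 CPM or more; and genes of 26 lists. Immunoglobulin variable segments, mitochondrial, ribosomal protein and sex-linked genes, gene models and the genes of the rule were left out, and 2 genes that the rules name are not reported here. The members, lists and tests were chosen with earlier results of these data known. Alternatives were DESeq2 1.42.0, RLE factors, no filter, limits on barcode quality, thinning to 1000 UMIs and leaving out a library, and those added after seeing the data were the scale from genes low in macs, subtraction of mac RNA and fewer than 3 C1q UMIs. The scripts were tested on simulated data.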

Additional observations from a re-analysis of the deposited data

Results flagged for a closer look

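The difference between tissues departed in B cells from that in macs for 1311 of 11614 genes (11.3%), by a test of the difference itself (edgeR, adjusted p under 0.05). Values here are the log2 B cell over mac ratio in spleen minus that in liver, for genes named in the account of spleen and liver. The haemoglobin genes were all above 0, with Hba-a1 at 10.36, Hba-a2 at 10.00, Hbb-bs at 3.47 and Hbb-bt at 3.45, and a fitted value of a gene at or near 0 in a group depends on the prior count. Among the histone genes Hist1h4d was at 4.28 and Hist1h1b at 2.95, and among mac genes Vcam1 was at -0.91, Vsig4 at -3.45, Wfdc17 at -0.64 and Gbp2b at -2.96.

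Of the 19 genes low in macs that differed between tissues in all 3 fits, which were chosen after their tissue values were seen, 9 were also among the 1311. Cr2 was at -1.08, Pax5 at -2.43, Ikzf3 at -2.92, Siglecg at -3.05, Lamb3 at -2.15, Cd2 at -2.33, H2-DMb2 at -1.15 and S1pr4 at -2.87, and S100a10 was at 1.36. Of all 114 genes low in macs, 11 passed with a higher ratio in spleen and 48 in liver. Their median was -1.20, so these counts do not set the 19 apart from their list. The level of the 114 in macs was a median of 5.29% and 5.89% of that in B cells in spleen WT and Zeb2KO. In liver WT, Zeb2KO and Nr1h3fl/fl WT it was 1.75%, 3.98% and 1.29%.

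B cells by the same rule also appeared in libraries outside the comparisons. The colon sorts held 21 in WT and 27 in Zeb2KO, and the lung sorts held 7 in WT and 13 in Zeb2KO. Each of these lay above the 3 cells that a count of 0 allows, and the brain sorts, with 3 in WT and 0 in Zeb2KO, did not.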

How the results depend on the processing

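No paired analysis was possible because the labels number no replicates and each group has 1 library (the library block of the test against macs pairs cell kinds, not replicates). Limits on barcode quality, RLE factors and CRE status as a covariate changed no count over 1.5 times. The test between tissues called 2868 genes in all, and separate fits gave totals of 1420 in DESeq2, 261 with thinned barcodes, 570 in B cells with fewer than 3 C1q UMIs and 275 with mac RNA subtracted. The last 3 rest on fewer UMIs, and beyond that the cause was not tested. Leaving out 1 library gave 1638 to 3095, with 1638 without spleen WT and 1881 without liver WT, and 1 remaining spleen library was taken to vary like the others. The scale from genes low in macs gave 3208, split 565 to 2643. The test against macs called 1311 genes, and the totals were 790 in DESeq2 and 148 with thinned barcodes, and leaving out a library gave 932 to 1238. The CRE test called 14 genes, and the totals were 4 in DESeq2, 78 with no filter, 26 with the scale from genes low in macs and 0 with thinned barcodes in edgeR (30 at an unadjusted p under 0.05), and leaving out a library gave 9 to 49, with 48 without spleen WT, 49 without spleen Zeb2KO and 9 without liver Zeb2KO. The 245 genes apart from macs became 159 with a pseudocount of 10 CPM (8 of them lower, against 36) and 96 with a floor of 100 CPM, and 253 to 400 with a library left out, with 400 without liver Zeb2KO. B cell shares in the order of the libraries were 3.41%, 1.98%, 1.12%, 0.996% and 0.284% when thinned and 2.32%, 1.36%, 0.0215%, 0.106% and 0% for B cells without C1q, and for the latter the liver cells (1, 5 and 0) were too few for a test. Of 548 values of 43 named genes, 519 kept direction and side of the threshold, 29 no longer passed and 0 reversed, but these genes were chosen for passing, so this is no measure of stability, and 25 of the 114 genes low in macs changed sign with the scale from these genes, which shifts all genes alike. Siglecg, Serpinb1a, Lamb3 and S100a10 lost the call in several, and Gimap1 without spleen Zeb2KO. In liver, 289 B cells and 1469988 UMIs limit genes under about 2.04 CPM.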
